A study of Mus musculus with 4 samples.

Results

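The androgen-binding protein region of mouse chromosome 7 was described in prostate RNA as all rows of the deposited expression table that lie wholly within a fixed window of 3 Mb (mm10). The window runs from just before Abpe, which starts at position 31302769, to just past 4931406P16Rik, which ends at 34285609, and it held 18 of the table's 23242 rows. Of these, 13 carry a RefSeq symbol of the secretoglobin family (Scgb) and are the androgen-binding protein rows, 5 of them alpha subunit genes (Scgb1b) and 8 beta-gamma subunit genes (Scgb2b). The other 5 rows, Wtip, Uba2, Pdcd2l, Gpi1 and 4931406P16Rik, are unrelated genes at the distal end. RefSeq places 46 Scgb genes in the window, and the 33 without a row, 21 of them protein coding, were not analysed here.

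Androgen-binding proteins are small secreted proteins of mouse saliva and tears, unrelated to the sex hormone-binding globulin that is also called androgen-binding protein in the testis. Each is a dimer in which an alpha subunit is joined by disulphide bonds to a beta or gamma subunit, and the dimers bind testosterone and dihydrotestosterone. Their genes stand in a cluster that grew by repeated duplication in the mouse lineage, so many copies are close to identical.

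RNA was sequenced from the ventral and dorsal lobes of the prostate in 4 mice of the FVB strain, 2 TMPRSS2:ERG homozygotes (mice 26 and 29, labelled ERG positive) and 2 wild types (mice 27 and 28, labelled ERG negative). The transgene is a bacterial artificial chromosome with the TMPRSS2 locus, into which human ERG exons were placed behind a GFP segment flanked by loxP sites (ERG belongs to the ETS family of transcription factors). Cre protein was injected into pronuclei, and the homozygotes all descend from 1 sub-line. The labels give neither age nor treatment, and each library comes from its own mouse.

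Values are FPKM, fragments scaled to transcript length and to library depth. Comparisons of level between genes of the cluster are limited, since several share long stretches of sequence with other genes. A step in the lowest values places the libraries at an estimated 45.3 × 1e6 to 52.0 × 1e6 fragments. At the lowest of these depths 1 fragment is worth 0.0381 to 0.0791 FPKM for the androgen-binding protein genes with an annotated transcript. The tissue label was read against marker lists. All 8 prostate markers were above 1 FPKM, with Pbsn, the probasin gene of prostate secretion, at 14559 and 11650 FPKM in mice 26 and 29, against 11182 and 9756 FPKM in mice 27 and 28. Their sum was 44202 and 28439 FPKM in homozygotes, against 16072 and 15819 FPKM in wild types. Members of this list went both ways. Msmb, the gene of a secreted prostate protein, was at 28440 and 15585 FPKM in homozygotes, against 3907 and 4869 FPKM in wild types, and was not called by the limma test used below (adjusted p = 0.0626). Tmprss2 was called lower, at 42.9 and 49.99 FPKM in homozygotes, against 68.4 and 81.0 FPKM in wild types. The 7 summed seminal vesicle markers came to 4394 and 8535 FPKM in homozygotes, against 34100 and 11176 FPKM in wild types. None was at 0, and 5 were lower in homozygotes by the same test. Pate4, not called, made up most of that sum in homozygotes (4371 and 8509 FPKM) and in mouse 28 (10196 FPKM). The 5 called rows lay at 0.923 to 16.6 FPKM in homozygotes and 52.7 to 11130.5 FPKM in wild types. The 13 salivary and lacrimal markers with a row came to 129.8 and 141 FPKM in homozygotes, against 75.4 and 65.7 FPKM in wild types. Bpifa2 and Prb1 of that list were at 0 in every library, 7 of the 13 stayed under 1 FPKM throughout, and Egf, Dcpp1 and Dcpp2 were higher in homozygotes by the same test. Svs2 had no usable value in any library, and Svs4 and Svs5 had none in mouse 27, so these rows were left out of the sum. The part of these cells in the results below was not tested. In whole lobes, fewer cells of a type and less RNA per cell cannot be told apart.

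Over the 13 androgen-binding protein rows, the summed FPKM came from different rows in each genotype. In homozygotes the sum came almost wholly from 5 rows, Gm5325, Gm4684, Gm5326, Gm5894 and Abpd, at 15.7 to 222 FPKM. These 5 rows share stretches of sequence with genes that have no row, so which genes lie behind their values is not settled. In wild types those 5 rows lay between 0.396 and 9.15 FPKM, and Abpb, at 0.590 and 0.583 FPKM in homozygotes, was the main row at 233 and 73.5 FPKM in wild types. The window was chosen from these very differences, so values of its members are given as a description, with no p-value.

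**Figure D1:**
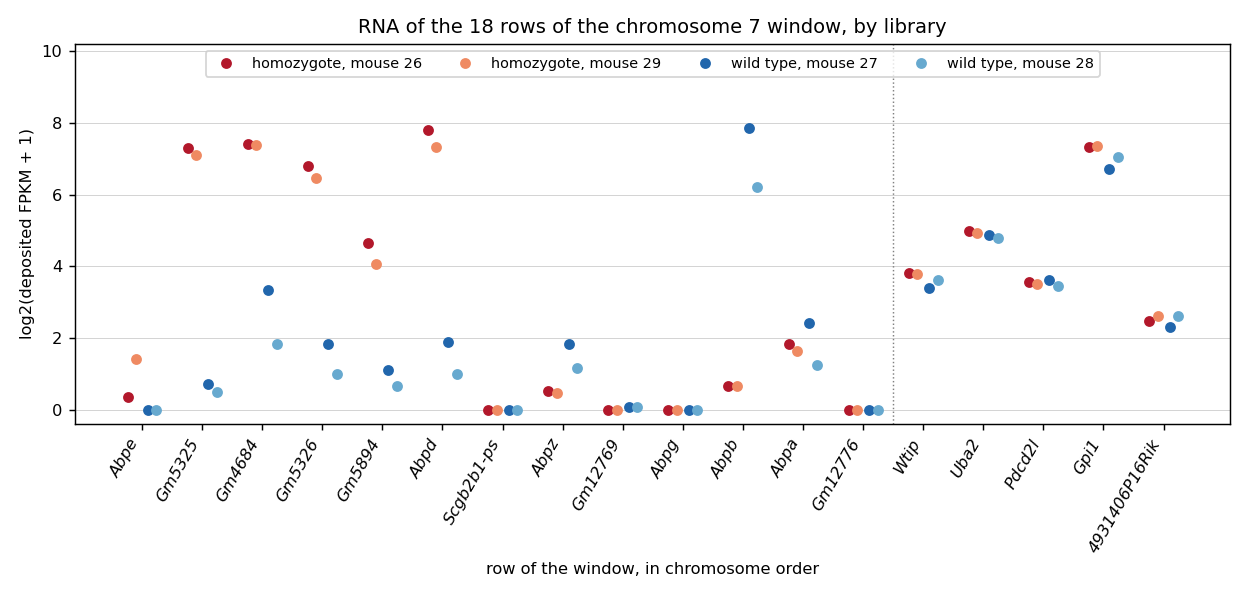
Deposited FPKM of the 18 rows on a log2(FPKM + 1) axis, each point 1 library (homozygote mice 26 and 29 in red and orange, wild-type mice 27 and 28 in dark and light blue), in chromosome order with the androgen-binding protein rows left of the dotted line. Gm5325, Gm4684, Gm5326, Gm5894 and Abpd stand higher in both homozygotes, at 15.7 to 222 FPKM, and Abpb higher in both wild types, at 233 and 73.5 FPKM.

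By limma on log2(scaled FPKM + 1) across the 11762 genes whose mean scaled FPKM reached 1, 7.65% of genes passed an adjusted p of 0.05, 4.65% higher and 3.0% lower in homozygotes. Of the 18 members, 13 entered the test, and 6 were called, 5 higher and 1 lower. All 6 were among the 8 androgen-binding protein rows tested, and 0 of the other 5 rows were called. These counts carry no weight as evidence, because the same contrast chose the window. Several rows also passed the filter only through the genotype in which they were high. The groups did not overlap in 10 of the 13 tested members, 8 higher and 2 lower in homozygotes, where 50.5% of all genes tested did not overlap, 34.0% higher and 16.5% lower. The median log2 difference, homozygote minus wild type, was 4.08 over the 8 tested androgen-binding protein rows, 0.07 over the other 5 rows and -0.0033 over all genes tested. With no filter on low values, 1 member, Gm5325, was called, and 126 genes of the whole table. When 1 library was left out, the table had 355 calls (mouse 26 out), 394 (mouse 29 out), 2028 (mouse 27 out) or 1630 (mouse 28 out).

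Of the alpha subunit genes, Gm5325 (RefSeq Scgb1b3, Entrez 384585) lies at positions 31375592 to 31376916 on the plus strand in 3 exons. It was at 155.4 and 136 FPKM in homozygotes, against 0.646 and 0.396 FPKM in wild types. Both homozygotes were far above both wild types, and the ratio of means was 279. The log2 difference was 6.53 (SE 0.150, n = 2 each), the highest of the tested members. Each SE given here is the moderated one of limma, drawn toward the trend of all genes tested, and is no plain spread between mice.

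Gm5326 (Scgb1b29, Entrez 384589, 32441541 to 32442844, plus strand) is the other alpha gene that was abundant in homozygotes. Its values were 110.03 and 86.4 FPKM in homozygotes, against 2.58 and 0.972 FPKM in wild types. The groups lay well apart, with a ratio of means of 55.4 and a log2 difference of 5.14 (SE 0.325). Its annotated transcript of 282 bases shares every stretch of 50 bases with Scgb1b7, a gene of the window with no row in the table. That transcript holds 279 coding bases, so the sharing covers little beyond the coding part. By these reference sequences, reads from it cannot be told apart from those of Scgb1b7, and the value may hold RNA of either gene. The sequence of FVB mice was not examined.

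Abpa (Scgb1b27, Entrez 11354, 34021567 to 34022881, plus strand) encodes the alpha subunit long known from mouse saliva. It was at 2.55 and 2.08 FPKM in homozygotes, against 4.34 and 1.35 FPKM in wild types. The groups overlapped, since both homozygotes lay between the wild types, and the log2 difference was -0.16 (SE 0.410). It was 0.49 without mouse 27 and -0.81 without mouse 28, so its direction depended on the wild type used. Gm12769 (Scgb1b24, 33743799 to 33745103) was listed at 0 in both homozygotes and at 0.0591 and 0.0544 FPKM in wild types, less than the 0.0791 FPKM that 1 fragment is worth for it at the lowest estimated depth. Gm12776 (Scgb1b30, 34095431 to 34100837) was listed at 0 in all 4 libraries.

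The abundant alpha genes are close copies of each other in the GENCODE M21 transcripts. Over the whole coding sequence Gm5325 and Gm5326 were 96.1% identical, with 11 mismatches in 279 aligned bases. Abpa was 81.8% identical to Gm5325 and 80.0% identical to Gm5326. Of the 50-base stretches of Gm5325, 27.8% also occur in other genes, shared with 13 genes of which 12 have no row in the table.

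Among beta-gamma subunit genes, Abpd (Scgb2b20, Entrez 494519, 33364343 to 33366319, minus strand) had the highest level in mouse 26. It was at 222 and 158 FPKM in homozygotes, against 2.71 and 1.00 FPKM in wild types. Mouse 26 was the higher homozygote and mouse 27 the higher wild type, with no overlap between groups. Means were 190.1 ± 45.0 FPKM in homozygotes and 1.86 ± 1.21 FPKM in wild types (SD, n = 2 each), and the log2 difference was 6.04 (SE 0.351).

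Gm4684 (Scgb2b7, Entrez 100043836, 31703779 to 31705754, minus strand) was at 169.9 and 167 FPKM in homozygotes, against 9.15 and 2.52 FPKM in wild types. The homozygotes were nearly alike, the wild types differed from each other, and the groups did not overlap. Its wild-type level was the second highest of the window's androgen-binding protein rows after Abpb in both wild types, the ratio of means was 28.8 and the log2 difference was 4.75 (SE 0.506). With a robust trend in the fit, Gm4684 was no longer called.

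Gm5894 (Scgb2b19, Entrez 545947, 33278366 to 33280341, minus strand) was the lowest of the 5 rows in homozygotes. It was at 24.3 and 15.7 FPKM in homozygotes, against 1.13 and 0.589 FPKM in wild types. Again both homozygotes exceeded both wild types, and the log2 difference was 3.42 (SE 0.263).

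Abpb (Scgb2b27, Entrez 233099, 34011932 to 34013942, minus strand), the gene of the beta subunit of salivary androgen-binding protein, had the opposite pattern. It was at 0.590 and 0.583 FPKM in homozygotes, against 233 and 73.5 FPKM in wild types. The wild types differed by a ratio of 3.16 from each other, and both were far above the homozygotes. Means were 0.587 ± 0.00530 FPKM in homozygotes and 153 ± 112 FPKM in wild types (SD, n = 2 each), a wild-type to homozygote ratio of 261 and a log2 difference of -6.43 (SE 0.547).

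Abpz (Scgb2b24, Entrez 233090, 33737193 to 33739295, minus strand) was at 0.428 and 0.386 FPKM in homozygotes, against 2.53 and 1.25 FPKM in wild types. Both homozygotes were below both wild types, with a log2 difference of -1.04 (SE 0.257), and the gene was not called. Without mouse 28 Abpz and Abpa were also called lower, which made 8 calls in the window.

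Abpe (Scgb2b2, Entrez 381970, 31302769 to 31304977, plus strand) was at 0.283 and 1.63 FPKM in homozygotes and was listed at 0 in both wild types, so no fold is given. It lay under the filter on low values. Abpg (Scgb2b26, 33942997 to 33944985), the gamma subunit gene, and the pseudogene Scgb2b1-ps (Scgb2b23-ps, 33625145 to 33653281) were listed at 0 in all 4 libraries. At the start of the window Abpe is the first row inside. The row just outside is another alpha gene, Abph (Scgb1b2, 31290519 to 31291816), at 1.15 and 1.71 FPKM in homozygotes and listed at 0 in both wild types. At the distal end 4931406P16Rik is the last row inside and Lsm14a, a gene of RNA granules, is the first outside (34344720 to 34389540), at 35.4 and 34.4 FPKM in homozygotes, against 29.7 and 33.5 FPKM in wild types.

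The first 90 coding bases of 4 beta-gamma genes are shown because 3 of them were high in homozygotes and Abpb was high in wild types. They were read from GENCODE M21 transcripts, and capitals mark bases that differ from Abpd.
Abpd: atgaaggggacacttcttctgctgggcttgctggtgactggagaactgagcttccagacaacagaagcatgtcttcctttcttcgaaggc
Gm4684: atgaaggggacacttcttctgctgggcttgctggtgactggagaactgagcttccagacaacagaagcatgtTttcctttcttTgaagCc
Gm5894: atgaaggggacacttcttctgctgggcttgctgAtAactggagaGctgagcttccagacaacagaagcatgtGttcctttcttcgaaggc
Abpb: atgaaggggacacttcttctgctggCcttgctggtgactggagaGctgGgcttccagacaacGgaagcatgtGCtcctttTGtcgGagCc
Mismatches to Abpd in this stretch numbered 3 in Gm4684, 4 in Gm5894 and 10 in Abpb. Over the whole coding sequence Gm4684 was 98.2% identical to Abpd, with 6 mismatches in 336 bases, and Gm5894 was 92.9% identical to Abpd. Abpb was 72.7% identical to Abpd, 73.8% to Gm4684 and 76.8% to Gm5894. Distance from Abpd was not particular to Abpb, since Abpe, Abpg and Abpz were 73.9%, 75.1% and 77.6% identical to it. Shared 50-base stretches with other genes made up 55.8% of Gm4684, 58.0% of Abpd and 63.1% of Gm5894, against 6.5% of Abpb and 0% of Abpz and Abpa. Gm5894 shares 57.5% of its stretches with Scgb2b12, a gene with no row in the table, so its value may hold RNA of that gene. Gm4684 and Abpd share 51.6% of the stretches of Gm4684 with each other, so the split of reads between them, on which the sources used here say nothing, can move their separate values. Abpb has few such stretches in common with the rows that were high in homozygotes.

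Promoters were compared in the RefSeq windows (GRCm38.p6) of 250 bases before to 50 after each gene start. These were present for 10 of the 13 androgen-binding protein rows and 14 of the 18 members. Gm5325 and Gm5326, the abundant alpha genes, and Scgb2b1-ps had none, so nothing on promoters or motifs below covers them. Each percentage counts only aligned bases of the 300-base windows and leaves out gaps. Gm4684 and Abpd were 98.7% identical, Gm4684 and Gm5894 94.2%, and Gm5894 and Abpd 93.6%. Against Abpb these 3 promoters were 81.0%, 81.3% and 82.9% identical for Gm4684, Abpd and Gm5894. Only 216, 219 and 222 bases aligned with Abpb. Against Abpz they were 81.2%, 81.1% and 82.7% identical in the same order, over 288, 285 and 283 aligned bases. Abpg, listed at 0, had the promoter nearest to that of Abpb, at 91.2% of 227 aligned bases. Abpa and Gm12776, both alpha genes, were 94.3% identical, although Gm12776 was listed at 0 in every library. The 3 beta-gamma genes that were high in homozygotes thus had nearly the same promoter sequence, and a near promoter did not always go with a like level.

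The stretch from 220 to 66 bases before the Abpd start and the stretches aligned to it are shown for the 5 beta-gamma genes with a promoter and a measured level, apart from Abpe. All lie on the minus strand and are printed 5′ to 3′ along the gene, capitals mark bases that differ from Abpd, and gaps are not drawn.
Abpd: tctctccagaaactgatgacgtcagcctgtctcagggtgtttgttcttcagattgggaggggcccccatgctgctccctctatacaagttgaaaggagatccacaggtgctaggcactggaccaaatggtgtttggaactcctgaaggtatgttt
Gm4684: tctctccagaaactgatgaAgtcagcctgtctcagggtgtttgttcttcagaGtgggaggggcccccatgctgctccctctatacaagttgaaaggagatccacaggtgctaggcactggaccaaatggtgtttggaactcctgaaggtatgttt
Gm5894: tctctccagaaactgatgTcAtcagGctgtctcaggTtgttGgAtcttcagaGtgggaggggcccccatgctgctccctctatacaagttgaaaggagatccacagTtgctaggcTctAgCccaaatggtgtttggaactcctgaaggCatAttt
Abpz: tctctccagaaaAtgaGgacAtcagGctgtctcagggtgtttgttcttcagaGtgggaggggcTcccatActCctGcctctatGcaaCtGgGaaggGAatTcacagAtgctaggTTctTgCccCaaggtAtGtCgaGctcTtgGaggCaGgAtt
Abpb: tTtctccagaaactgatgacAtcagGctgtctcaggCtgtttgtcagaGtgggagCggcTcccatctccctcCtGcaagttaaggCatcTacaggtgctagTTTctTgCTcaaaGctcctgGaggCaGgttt
They lie at chr7:33366385-33366539 (Abpd), chr7:31705823-31705977 (Gm4684), chr7:33280405-33280559 (Gm5894), chr7:33739376-33739529 (Abpz) and chr7:34013953-34014084 (Abpb). Gm4684 differs from Abpd at 2 aligned bases of this stretch, Gm5894 at 13, Abpz at 31 and Abpb at 21, the last over 132 aligned bases.

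Short motifs were searched on both strands of the same windows. The ETS core AGGAAG occurs in 35.4% of all 32851 RefSeq promoters and was found 2 times each in Abpg, Abpb, Abpa and Gm12776, and not in the other 6. The ETS core CCGGAA, in 14.9% of all promoters, was found in none of the 10. These matches are descriptions of the letters only.

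**Figure D2:**
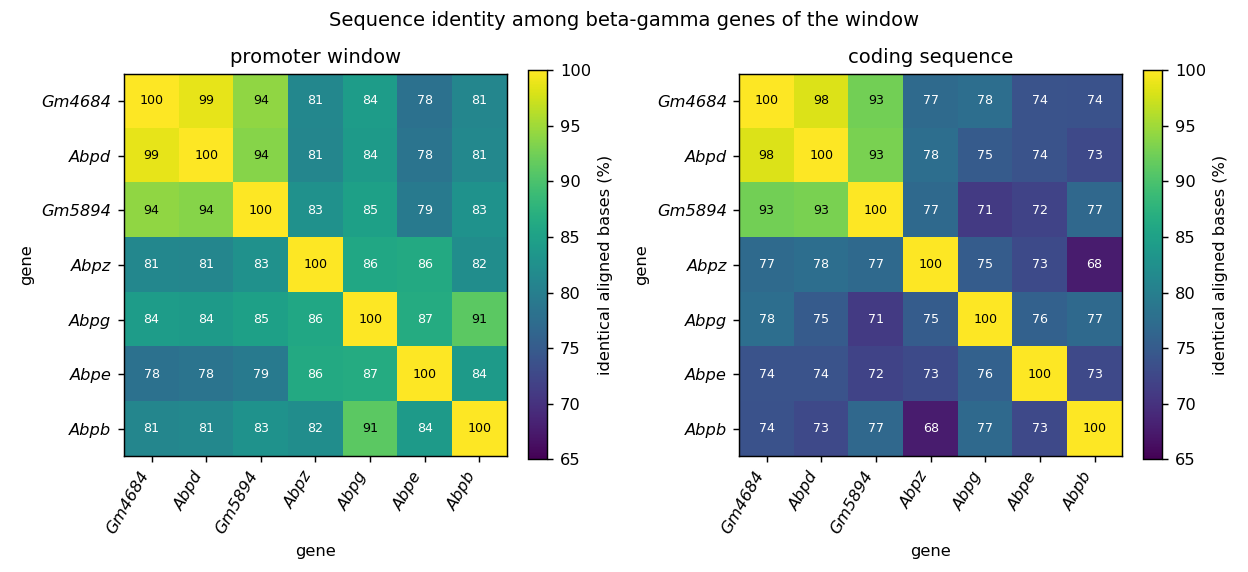
Percent of aligned bases that are identical between pairs of beta-gamma genes (rows and columns), for the promoter window on the left and the coding sequence on the right, with the colour scale beside each map. Gm4684, Abpd and Gm5894 form a block of 92.6% to 98.7% identity in both. Abpb lies outside it at 72.7% to 82.9%, as do Abpe, Abpg and Abpz at 70.9% to 84.9%.

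Summed over the 13 androgen-binding protein rows, the level was 685 and 568 FPKM in homozygotes, against 256 and 81.7 FPKM in wild types. Abpb made up 0.0861% and 0.103% of that sum in homozygotes, against 90.9% and 90.03% in wild types. The 5 rows named above made up 99.4% and 99.2% in homozygotes, against 6.34% and 6.72% in wild types. Within a genotype the make-up was close between the animals even though the wild-type sums differed widely. Abpd was the largest share in mouse 26, at 32.4%, and Gm4684 in mouse 29, at 29.4%. Alpha subunit genes held 39.1% and 39.5% of the sum in homozygotes, against 2.98% and 3.40% in wild types.

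**Figure D3:**
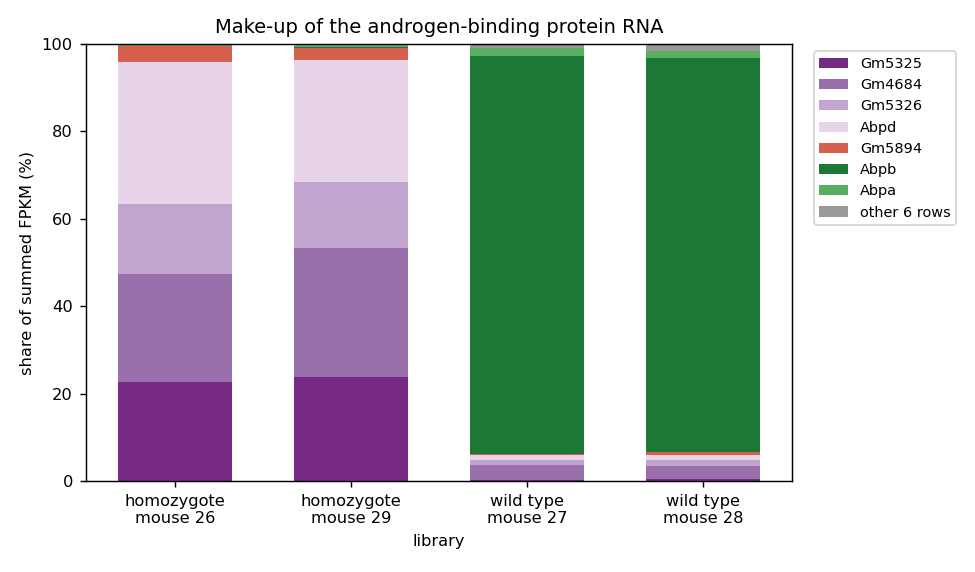
Share of the summed FPKM of the 13 androgen-binding protein rows (percent, stacked bars) taken by each gene, in homozygote mice 26 and 29 and wild-type mice 27 and 28. Abpb fills 90.9% and 90.03% of the wild-type bars, and Gm5325, Gm4684, Gm5326, Gm5894 and Abpd fill 99.4% and 99.2% of the homozygote bars.

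The wild types also differed from each other in the same direction across the cluster, a comparison that the choice of the window did not use directly. After scaling, mouse 27 was above mouse 28 in 9 of the 9 androgen-binding protein rows with a value in both, at ratios of 1.21 (Gm12769) to 4.05 (Gm4684) with a median of 2.96. Of the 9 ratios, 7 were 2 or more, as were 0.998% of the ratios of 11728 other tested genes. Gm12769 was not tested, and in both wild types it lay under the 0.0791 FPKM that 1 fragment is worth for it. The rows share each library, several share stretches of sequence, and they are no replicates, so no test was made. The 5 other rows of the window had ratios of 0.871 to 1.27. Mouse 27 also had the highest seminal vesicle marker sum, at 34100 FPKM against 11176 FPKM in mouse 28. Pate4 made up most of the mouse 28 sum, at 14624 FPKM in mouse 27 and 10196 FPKM in mouse 28. Other markers differed more widely, such as Svs6 at 11130.5 against 468 FPKM and Sva at 1287 against 52.7 FPKM. Pax2 went the other way, at 2.56 against 3.31 FPKM. The salivary and lacrimal marker sum was 75.4 FPKM in mouse 27 and 65.7 FPKM in mouse 28, with Amy1 at 23.3 against 3.46 FPKM. Egf, Lpo and Smr2 of that list went the other way, at 46.5 against 52.4, 2.87 against 7.49 and 0.0938 against 0.124 FPKM. The part of seminal vesicle, salivary or lacrimal RNA in the difference across the cluster was not tested. Between homozygotes, mouse 26 was above mouse 29 in 8 of 9 rows, with a median ratio of 1.18 and a highest ratio of 1.59 (Gm5894). Abpe was the exception, at a ratio of 0.179.

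**Figure D4:**
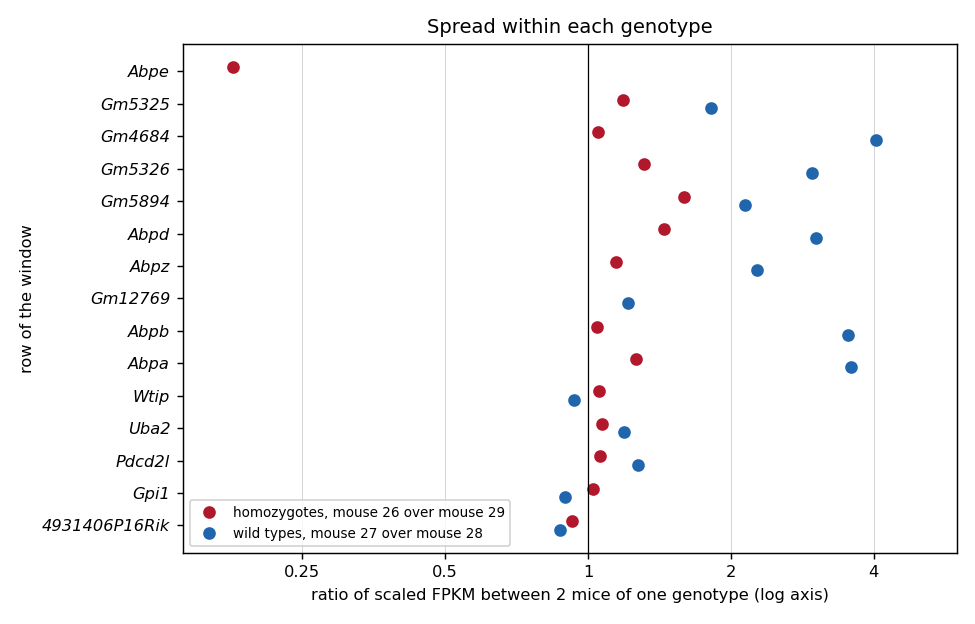
Ratio of scaled FPKM between the mice of 1 genotype (log axis) for each row of the window with a value above 0 in both, homozygotes as mouse 26 over mouse 29 in red and wild types as mouse 27 over mouse 28 in blue. The wild-type ratios of androgen-binding protein rows reach 4.05, and those of the 5 other rows lie between 0.871 and 1.27.

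The 5 rows of the window from other families showed small differences. Gpi1, a glycolytic enzyme gene, was at 161 and 162 FPKM in homozygotes, against 104 and 130.3 FPKM in wild types, higher in both homozygotes with a log2 difference of 0.39 (SE 0.126), and was not called. Wtip, a LIM-domain protein gene, was at 13.1 and 12.8 FPKM in homozygotes, against 9.50 and 11.4 FPKM in wild types (log2 difference 0.22). Uba2, a subunit of the SUMO-activating enzyme, was at 30.7 and 29.7 FPKM in homozygotes, against 28.2 and 26.4 FPKM in wild types (log2 difference 0.07). None of these 3 passed, although their groups did not overlap. Groups overlapped for Pdcd2l, at 10.7 and 10.4 FPKM in homozygotes, against 11.3 and 9.91 FPKM in wild types. They also overlapped for 4931406P16Rik (RefSeq Garre1), at 4.56 and 5.10 FPKM in homozygotes, against 3.98 and 5.10 FPKM in wild types.

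Genes within 2 Mb of the window were compared to see how far such differences reached along the chromosome. Of 102 flanking rows, 62 were tested and 6 were called, 5 higher and 1 lower in homozygotes, which is 9.68% beside the 7.65% of all genes. The median absolute log2 difference was 0.122 in the tested flanking rows and 0.151 over all genes tested. The widest among tested flanking rows was 1.21. Abph, the androgen-binding protein row just outside the window, was not tested and had a log2 difference of 1.25. Wdr62, a centrosome and spindle protein gene, was at 2.37 and 3.25 FPKM in homozygotes, against 0.621 and 0.563 FPKM in wild types (log2 difference 1.21, SE 0.151, limma adjusted p = 0.0102). Fxyd5, a regulator of the sodium pump, was at 12.8 and 12.1 FPKM in homozygotes, against 4.67 and 5.88 FPKM in wild types (1.04, SE 0.114, limma adjusted p = 0.00661). Lsr, a lipoprotein receptor gene of cell junctions, was at 137 and 117 FPKM in homozygotes, against 51.9 and 67.2 FPKM in wild types (1.01, SE 0.149, limma adjusted p = 0.0171). These 3 genes lie proximal to the window and were higher in both homozygotes. AI428936 (RefSeq Syne4; log2 difference 0.70, limma adjusted p = 0.0345) and Rhpn2 (0.52, limma adjusted p = 0.0467), also rose, and Dpy19l3, a mannosyltransferase gene, fell by 0.75 (limma adjusted p = 0.0322). The call of Rhpn2 was lost with unscaled FPKM (limma adjusted p = 0.0736), quantile normalization (0.0576), no trend (0.0578) and no filter (0.139), and without mouse 26 (0.429) or mouse 29 (0.262). Without mouse 26 the calls of AI428936, Lsr, Fxyd5 and Dpy19l3 were lost too, and without mouse 29 those of AI428936 and Dpy19l3. That of Dpy19l3 was also lost with unscaled FPKM (limma adjusted p = 0.0868). By limma without a filter on low values 0 flanking genes were called, although 15 had an unadjusted p under 0.05. By limma 1 was called without mouse 26, 3 without mouse 29 and 12 without mouse 27.

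**Figure D5:**
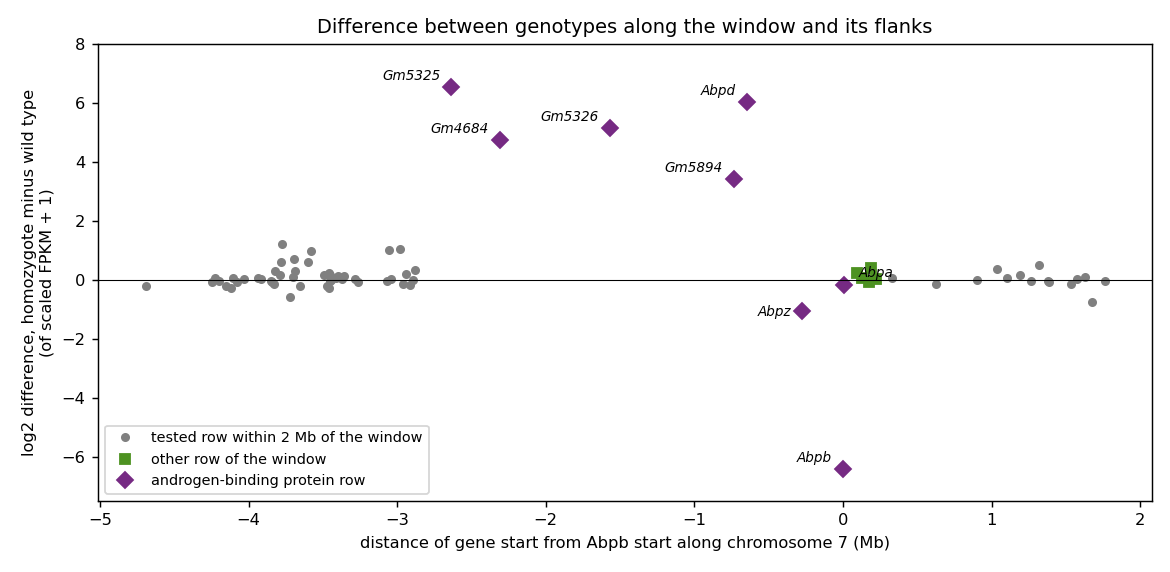
Log2 difference, homozygote minus wild type, of log2(scaled FPKM + 1) for tested rows (vertical axis) against the distance of the gene start from the Abpb start in Mb. Androgen-binding protein rows (purple diamonds) span 6.53 to -6.43, while other rows of the window (green squares) and tested rows within 2 Mb (grey points) stay within 1.21 of 0.

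Secretoglobin genes outside the window are the nearest relatives of the family, and none of their 5 rows reached the filter on low values. Scgb1a1, the airway club cell secretoglobin gene, was at 1.28 and 1.76 FPKM in homozygotes, against 0.394 and 0.207 FPKM in wild types, both homozygotes higher. Abph is given above. Scgb3a2, another airway secretoglobin gene, was at 0.0308 and 0.0313 FPKM in homozygotes, against 0.178 and 0.0967 FPKM in wild types. Scgb3a1 was at 0 and 0.126 FPKM in homozygotes, against 0 and 0.132 FPKM in wild types, and Scgb1c1 was at 0 throughout. Without mouse 27 or without mouse 28, the fit called 1 of these genes, higher in homozygotes.

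Steroid handling was read from a list of 32 genes, of which 30 had a row and 16 were tested. The list is not confined to androgens, and the 16 include Nr3c1, Pgrmc1, Fkbp4 and Fkbp5. By limma 0 of 16 were called, beside 7.65% of all genes, and 0 had an unadjusted p under 0.05. The authors' deposited table calls 3 of the 20 rows it tested lower (Hsd17b14, Hsd17b2 and Srd5a1), beside 14.2% of all genes. Log2 differences lay between -1.03 (Hsd17b2) and 0.19, with a median of -0.08. Srd5a1, a steroid reductase gene, was at 2.91 and 5.26 FPKM in homozygotes, against 1.21 and 11.3 FPKM in wild types, and Hsd17b2 at 0.120 and 0.142 FPKM in homozygotes, against 0.0794 and 4.02 FPKM in wild types. For both, mouse 28 was the highest library and mouse 27 the lowest. Shbg, the blood carrier of sex steroids, was listed at 0 in all 4 libraries. Without mouse 27, 2 genes of the list were called lower, and without mouse 28, 1 was called higher.

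The authors' deposited table has log2 folds that are larger for genes near 0 in 1 genotype. It gives Gm5325 a log2 fold of 8.10, Abpd 6.77, Gm5326 5.89, Gm4684 5.03 and Gm5894 4.55. The authors' deposited table gives Abpb -7.90, Abpz -2.07 and Abpa -0.15. By the authors' deposited q-value under 0.05, 8 members were called, the 6 above with Abpe higher and Abpz lower, where that rule called 14.2% of all genes it tested. The same window and contrast lie behind these values, and nothing is read from the count.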

How the data were processed

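RNA sequencing values of 4 libraries, 2 TMPRSS2:ERG homozygotes and 2 wild types, were taken from the authors' deposited table, with groups from the labels. RNeasy Plus extraction and standard Illumina library preparation were used, per the labels. The deposited values are FPKM, a unit read from the values. The authors' table also holds, per the file headers, a fold change between genotypes, read as log2 from the values, and a p-value and q-value per gene. TopHat 1.3, Cufflinks 1.3 and mm10 are named in the submitters' processing notes. Their roles, the annotation, the use of strand and the handling of reads that map to several genes were not given in the sources used here.

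FPKM were divided by median-of-ratios factors (1.01 and 1.04 for mice 26 and 29, 0.921 and 1.03 for mice 27 and 28). The value 99999, held by 7 genes, was read as a code and treated as missing. Genes whose mean scaled FPKM reached 1 were tested on log2(scaled FPKM + 1) with limma 3.58.1 in R 4.3.3 (trend, two-sided, Benjamini-Hochberg adjustment over all genes, threshold 0.05), with 2 residual and 3.62 prior degrees of freedom. The pseudocount of 1 makes differences of genes near 0 smaller than their ratios. The fit was tested on simulated data. P-values and SEs rest on the spread between 2 mice per genotype, drawn toward the trend of all genes tested. Starts were raised by 1, since 12841 then equal RefSeq starts, against 782 without. Of 23242 IDs, 23146 matched RefSeq. Identity came from global alignment in Biopython 1.88. All transcripts, promoters, motifs and shared stretches were read from the mouse reference, and the sequence of FVB mice was not examined.

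The members and lists were chosen with earlier results of these data known. Named genes are every row of the window, secretoglobins elsewhere, called members of the steroid list, up to 6 called flanking genes and the nearest row on each side. Shbg, the markers and the 3 steroid genes called in the authors' deposited table were named after their values were seen. Counts of calls were recomputed without scaling, with quantile normalization, with 0.1 as the pseudocount, with the filter dropped or raised to 5, with no trend or a robust one, without each library in turn, and by the authors' deposited q-value. Member differences were recomputed for scaling, pseudocount and each library left out. Shares, marker calls, overlaps of groups and ratios within a genotype were not recomputed. Another motif that was searched is not reported here.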

Additional observations from a re-analysis of the deposited data

How the results depend on the processing

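Across all genes tested, 900 were called, 126 with no filter, 2032 by the authors' deposited q-value with a signed fold, and 355 to 2028 with each library left out in turn. Of the calls, 60.8% were higher in homozygotes, against 73.0% with unscaled FPKM, which also moved the median log2 difference of all genes to 0.06. In the window 6 members were called, 1 with no filter, 5 with a robust trend and 6 to 8 with each library left out. In the flanks 6 genes were called, 0 with no filter, 11 by the authors' deposited q-value and 1 to 12 with each library left out. Of the secretoglobins elsewhere 0 were called, 2 by the authors' deposited q-value and 0 to 1 with each library left out. Of the steroid handling genes 0 were called, 3 by the authors' deposited q-value and 0 to 2 with each library left out. The cause of these shifts was not tested. Of 98 recomputed member log2 differences, 87 moved by less than the spread between replicates, and 11 moved by more. The sign changed in 5 of the 98, over 4 members, and in 0 for called members. These were Abpa and Pdcd2l without mouse 27 (0.49 and 0.08), Uba2 without mouse 28 (-0.06) and 4931406P16Rik without mouse 29 (-0.03) and without mouse 27 (-0.07). With a pseudocount of 0.1 the difference was 7.83 for Gm5325 and -7.65 for Abpb. Of 64 recomputed values for the 6 called flanking genes, 46 kept their side of the threshold and 18 did not, with 0 reversed. Where 1 library was dropped, the remaining one was taken to be as variable as the other genotype. Members sharing long stretches (Gm5326 with Scgb1b7, Gm5894 with Scgb2b12, Gm4684 with Abpd, and Gm5325 with 13 genes) are limited by read assignment, and values under 1 FPKM by depth. No paired analysis was possible because the genotypes share no mouse number.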
